A study of Homo sapiens with 12 samples.

Results

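The HOX genes encode homeodomain transcription factors that give cells their position along the body axis. In humans they lie in 4 clusters on different chromosomes, and within a cluster the genes are numbered in the order in which they lie. Genes with the lowest numbers act towards the head, in the hindbrain and the pharyngeal arches, and those with the highest numbers act in the trunk, limbs and urogenital tract. Genes with the same number in different clusters are paralogs. Cells keep the pattern of active and silent HOX genes through Polycomb proteins, which repress, and trithorax (MLL) proteins, which maintain activity, and in the embryo retinoic acid sets much of that pattern. HOX proteins bind DNA together with cofactors of the TALE class, PBX, MEIS and PKNOX.

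All protein-coding genes named HOX with a cluster letter A to D and a paralog number were taken from the count files, 39 of 58051 genes (19629 of them protein-coding). The HOXA cluster holds 11 of them on chromosome 7, HOXB 10 on chromosome 17 (48528526 to 48729178, GRCh38), HOXC 9 on chromosome 12 (53938765 to 54056030) and HOXD 9 on chromosome 2 (176092891 to 176190907). By paralog number, 8 are anterior (1 to 3), 15 central (4 to 8) and 16 posterior (9 to 13).

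RNA was measured in FaDu cells, an established line from a hypopharyngeal squamous cell carcinoma, and in Cal27 cells, an established line from a squamous cell carcinoma of the tongue, in 6 groups of 2 libraries. Each line was sampled as parental cells, as afatinib-resistant cells (AfaR) and as erlotinib-resistant cells (ErlR); afatinib is an irreversible inhibitor of the ERBB receptor family and erlotinib a reversible inhibitor of EGFR. All groups carry the genotype label WT, and per the study's methods the resistant cells came from stepwise increases of drug dose, so each resistant group is a single resistant population of its line. Labels name the libraries biological replicates without saying that they came from separate cultures, so p-values measure the spread between these libraries only. Counts on genes ran from 16334937 to 23399259 per library. Of the 10 squamous epithelial markers, 10 reached 1 CPM in every group but Cal27 AfaR, where 9 did.

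Levels are given as CPM, counts scaled to library size after TMM normalisation, and levels of different genes are compared per kilobase of exon (RPKM). In bulk RNA, fewer cells that express a gene and less RNA per cell cannot be told apart. In FaDu parental cells 30 of the 39 reached a group mean of 1 CPM, 32 did in FaDu AfaR and 30 in FaDu ErlR. In Cal27 the numbers were 27 in parental cells, 28 in AfaR and 26 in ErlR. The median of the HOX genes at or above 1 CPM was 6.33 CPM in FaDu parental and 3.06 CPM in Cal27 parental cells, below the 25.6 and 25.5 CPM of all genes at or above that level.

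Per kilobase, HOXB7 was highest in FaDu parental cells at 11.6 ± 0.423 RPKM (SD, n = 2), before HOXC10 at 9.50 ± 0.257 and HOXA10 at 8.26 ± 0.808. In Cal27 parental cells HOXA3 led at 8.31 ± 0.536 RPKM, before HOXD11 at 7.46 ± 0.360 and HOXA10 at 6.07 ± 0.171. In Cal27 the difference between HOXA3 and HOXD11 was smaller than the sum of their SDs. HOXA3, which acts in the pharyngeal arches that form thymus and parathyroid, is an anterior gene, whereas HOXA10 and HOXD11, known from uterus and limb, are posterior.

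**Figure D1:**
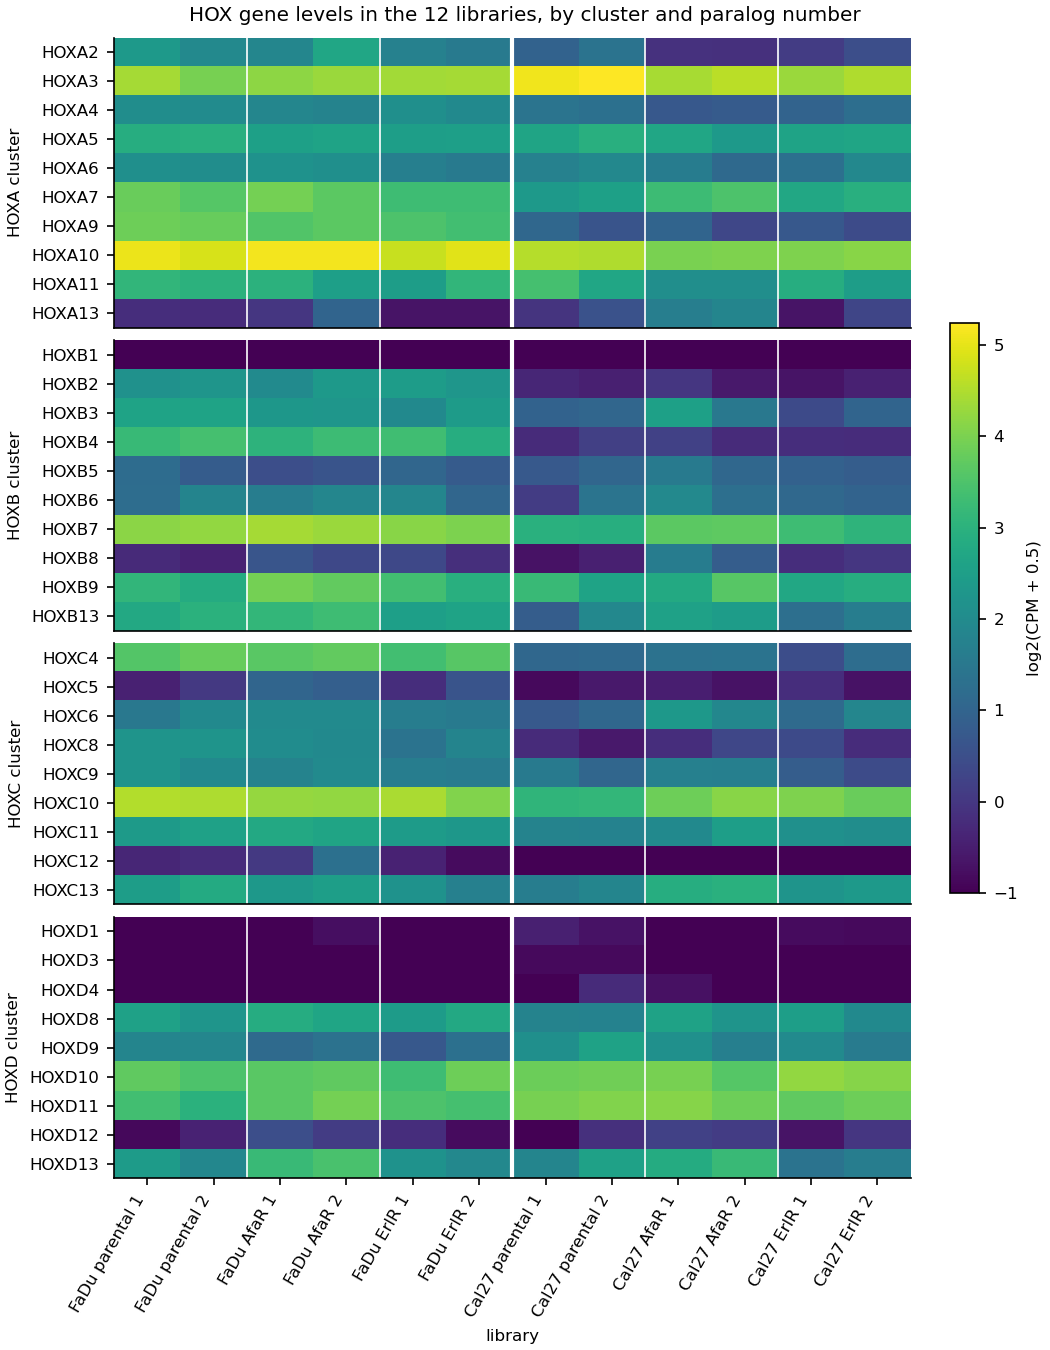
Heat map of log2(CPM + 0.5) for the HOX genes (rows, by cluster and paralog number) in the 12 libraries (columns). HOXB1, HOXD1, HOXD3 and HOXD4 lie at the dark end of the scale in all libraries, and HOXA9, HOXB2, HOXB4, HOXC4 and HOXC8 are darker in the 6 Cal27 libraries than in the 6 FaDu libraries.

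The summed level of a cluster shows how the lines differ. HOXA summed to 42.2 and 36.9 RPKM in the FaDu parental libraries and to 31.5 and 32.0 in the Cal27 parental libraries. HOXB summed to 22.9 and 23.9 RPKM in FaDu parental but to 9.89 and 9.91 in Cal27 parental cells, and HOXC to 23.0 and 24.2 against 8.04 and 7.96. HOXD had 15.3 and 12.5 RPKM in FaDu parental and 17.0 and 20.2 in Cal27 parental cells. Thus HOXB and HOXC were low in Cal27 parental cells, whereas the HOXD sums were somewhat above those of FaDu. In Cal27 AfaR the HOXB sum was 17.0 and 16.7 RPKM and the HOXC sum 13.97 and 15.63, between Cal27 parental and FaDu parental cells, while HOXA was at 23.7 and 23.5. These sums are descriptions without a test.

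**Figure D2:**
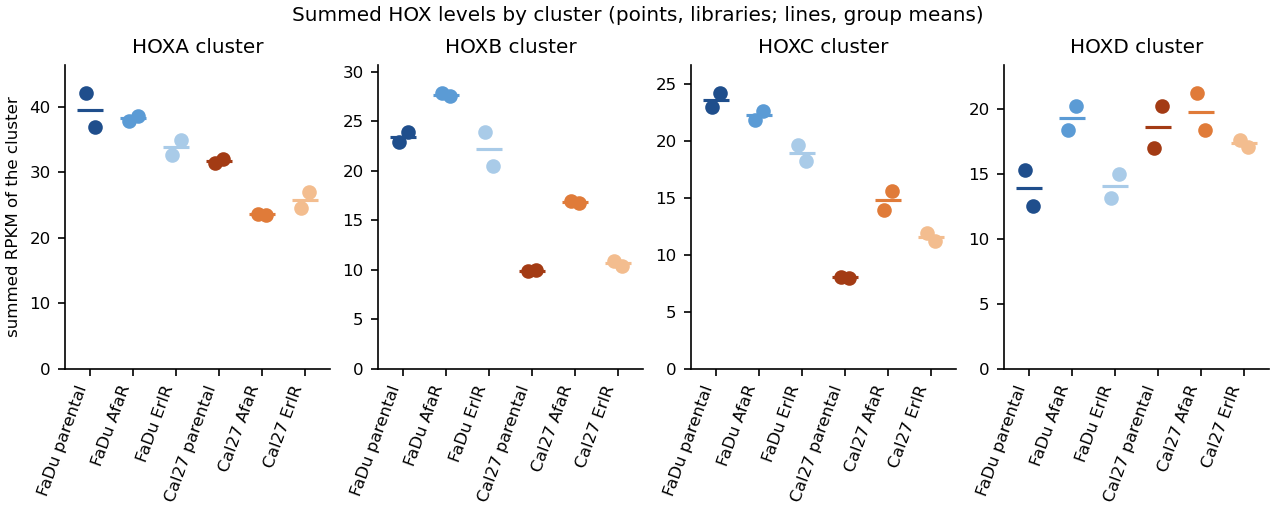
Summed RPKM of each HOX cluster (vertical axis from 0) in the 6 groups; points are libraries and lines are group means. Cal27 parental points for HOXB (9.89 and 9.91) and HOXC (8.04 and 7.96) were the lowest of their panels.

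The anterior end of the HOXD cluster and HOXB1 were at or near 0 in all 12 libraries. HOXB1, a hindbrain gene, had 0 counts in every library, which allows up to 0.134 to 0.194 CPM depending on the group (3 counts per library, counting error only). HOXD1, HOXD3 and HOXD4 had at most 6 counts in any library, whereas HOXD8, the next gene of the cluster that was clearly expressed, had 5.44 and 4.31 CPM in FaDu parental and 2.97 and 2.92 CPM in Cal27 parental cells. HOXD10 was measured at 12.8 and 10.8 CPM in FaDu parental and 13.8 and 14.3 CPM in Cal27 parental cells, and HOXD11 at 9.76 and 7.49 against 15.2 and 16.3 CPM. The HOXD cluster therefore showed an anterior end near 0 and a posterior end in use in both lines. How reads were counted limits this for 3 genes: 80.5% of the exonic bases of HOXD4 and 73.0% of those of HOXD3 lie also in other annotated genes, and 57.4% of those of HOXD1 lie in HAGLR and a further gene on the other strand. The gene that overlaps HOXD4, ENSG00000278500, had 0 counts in all libraries. Reads that fall in several genes are by default left out by featureCounts, and its strand setting is not given in the sources used here.

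HOXC12 was listed at 0 counts in all 6 Cal27 libraries. It had 6 and 7 counts in FaDu parental cells and 11 and 48 counts in FaDu AfaR. The FaDu parental mean was 1.87-fold a floor of 3 counts per library in Cal27 parental cells. That ratio leaves out the counting error of the FaDu counts. HOXD12 ranged from 0 to 0.922 CPM over the libraries and HOXC5, with 59.9% of its exonic bases in other genes of the same strand, from 0.0583 to 1.55 CPM.

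The 250 bases before a start listed in RefSeq are shown for 5 genes, to set silent beside active members. HOXB1 and HOXD3 were at or near 0 in both lines and HOXD11 was expressed in both. HOXA9 was high in FaDu and low in Cal27, and HOXD13 rose in FaDu AfaR. The windows of HOXD3, HOXD11 and HOXA9 lie within the span of their gene in the count files, past its first annotated base. Sequences are from RefSeq on GRCh38.p14, 5′ to 3′ on the strand of the gene, with CG dinucleotides in capitals; none of these windows overlaps an exon of the count files.
HOXB1 (chr17:48531012-48531261, minus strand): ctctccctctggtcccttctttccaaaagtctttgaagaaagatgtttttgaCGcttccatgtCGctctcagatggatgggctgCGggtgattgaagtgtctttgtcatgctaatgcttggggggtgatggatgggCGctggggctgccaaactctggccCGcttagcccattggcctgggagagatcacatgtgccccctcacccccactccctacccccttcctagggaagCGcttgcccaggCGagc
HOXD3 (chr2:176157057-176157306, plus strand): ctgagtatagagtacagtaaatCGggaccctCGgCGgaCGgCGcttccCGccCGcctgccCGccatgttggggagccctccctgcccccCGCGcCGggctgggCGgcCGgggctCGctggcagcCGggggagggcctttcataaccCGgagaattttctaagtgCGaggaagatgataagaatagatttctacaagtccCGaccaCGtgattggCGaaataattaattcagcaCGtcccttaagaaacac
HOXD11 (chr2:176107030-176107279, plus strand): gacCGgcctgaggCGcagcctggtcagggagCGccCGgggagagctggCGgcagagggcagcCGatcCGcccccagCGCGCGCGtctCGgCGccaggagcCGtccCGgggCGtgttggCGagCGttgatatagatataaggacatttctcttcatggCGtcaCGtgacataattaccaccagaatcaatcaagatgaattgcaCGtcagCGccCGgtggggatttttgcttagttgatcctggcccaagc
HOXA9 (chr7:27165538-27165787, minus strand): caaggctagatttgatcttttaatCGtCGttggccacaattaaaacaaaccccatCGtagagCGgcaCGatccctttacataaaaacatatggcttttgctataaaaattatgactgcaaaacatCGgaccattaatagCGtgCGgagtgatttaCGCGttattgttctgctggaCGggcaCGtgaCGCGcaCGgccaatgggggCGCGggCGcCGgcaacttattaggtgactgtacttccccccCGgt
HOXD13 (chr2:176092471-176092720, plus strand): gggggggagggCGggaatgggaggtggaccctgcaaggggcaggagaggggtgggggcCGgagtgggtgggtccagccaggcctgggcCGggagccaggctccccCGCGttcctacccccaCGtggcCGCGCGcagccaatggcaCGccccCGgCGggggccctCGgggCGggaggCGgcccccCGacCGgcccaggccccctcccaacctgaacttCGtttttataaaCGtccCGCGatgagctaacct

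The HOXD3 window holds 21 CG dinucleotides, as many as 30.2% of the 35116 promoter entries of RefSeq reach, and the HOXD11 window holds 23 (25.8%). HOXD13 has 21 and HOXA9 20 (32.4%), against 7 for HOXB1 (58.9%). The letters TATAAA, searched on both strands, occur in the windows of HOXA9 and HOXD13 and in 10.7% of all entries, and TGATNNAT, the core that HOX and PBX proteins can bind together, occurs in those of HOXB1 and HOXD11 and in 6.47% of all entries. Promoters were on hand for 20 of the 39 genes in 27 entries, and a match describes letters only.

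Cal27 parental cells were then compared with FaDu parental cells, to describe the lines before resistance. Of 34 HOX genes tested, 13 were lower in Cal27 and 0 higher, where a call needs an adjusted p-value below 0.05 together with a change of more than 1 on the log2 scale. That is 38.2% of the members tested, where 12.5% of all 16240 genes tested were called lower and 19.1% called higher. The 13 comprised 5 of the HOXB genes, 5 of the HOXC genes and 3 of the HOXA genes, and 0 of the 6 tested HOXD genes were called. Log2 fold changes were below 0 for 9 of 9 tested HOXB and 8 of 8 tested HOXC genes; with scaling by the spike-ins, which moved the median of all genes from 0.04 to 0.62, this became 7 of 9 and 8 of 8. The median over members was -0.79 against 0.04 for all genes. By position, 14 of 14 tested central genes had a negative log2 fold change (11 of 14 with spike-in scaling), against 8 of 15 posterior genes. Other markers differed between the same groups: squamous markers summed to 7610 to 11500 CPM in FaDu parental and 4120 to 5430 CPM in Cal27 parental cells, fibroblast markers to 4.66 to 5.51 against 30.2 to 41.8 CPM and endothelial markers, mostly CDH5, to at most 5.98 against 31.7 to 32.7 CPM. At least 1 CPM was reached by 10 of 10 squamous markers in both lines and by 1 of 9 fibroblast markers in FaDu and 3 of 9 in Cal27, with FAP at 0 in both, DCN at 0 in FaDu and the endothelial marker KDR at 0 in Cal27. Their part in the HOX results was not tested.

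**Figure D3:**
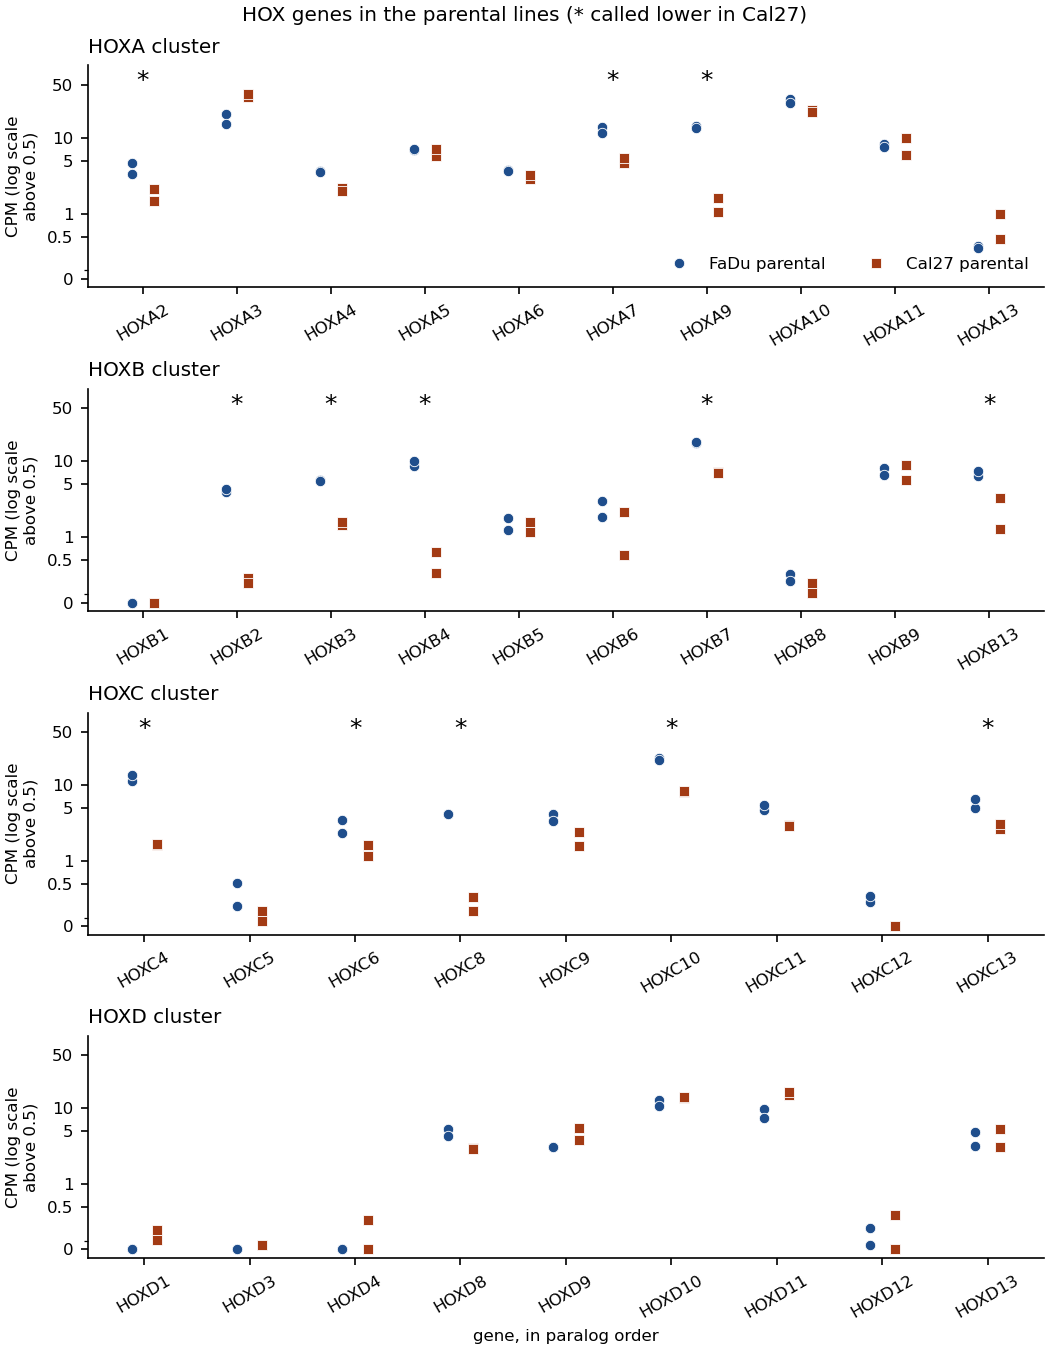
CPM of HOX genes in the 2 FaDu parental (circles) and 2 Cal27 parental libraries (squares), by cluster, on an axis that is logarithmic above 0.5 CPM; stars mark the 13 genes called lower in Cal27. The stars fall in the HOXA, HOXB and HOXC panels and none in the HOXD panel.

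The largest differences were in HOXB and HOXC. HOXB4 (ENSG00000182742, chr17:48575513-48580111), known for the self-renewal of blood stem cells, was at 8.69 and 10.1 CPM in FaDu parental and at 0.349 and 0.642 CPM in Cal27 parental cells. Its log2 fold change of -4.23 (SE 0.369, edgeR adjusted p = 1.48e-06) is an 18.7-fold lower level. HOXB2 (ENSG00000173917, chr17:48540894-48544989), a hindbrain gene, had 3.98 and 4.31 CPM against 0.291 and 0.233 CPM. It was lower by a log2 fold change of -3.95 (SE 0.459, adjusted p = 1.5e-05). HOXC8 (ENSG00000037965, chr12:54009106-54012362), a gene of the thoracic region, had 4.22 and 4.21 CPM in FaDu and 0.349 and 0.175 CPM in Cal27, with a log2 fold change of -3.97 (SE 0.502, adjusted p = 2.95e-05). In Cal27 parental cells each of these 3 genes was at most at 11 counts in a library.

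HOXA9 (ENSG00000078399, chr7:27162435-27175180), a posterior gene known from blood progenitors and leukaemia, was at 14.1 and 13.3 CPM in FaDu parental and at 1.63 and 1.05 CPM in Cal27 parental cells (log2 fold change -3.35, SE 0.309, adjusted p = 2.38e-06). Its neighbour HOXA10 was at 32.7 and 28.5 CPM against 22.9 and 22.1 CPM and was not called, so the next gene of the cluster stayed among the most counted in both lines. Part of the exonic bases of HOXA9 (27.0%), HOXC4 (17.8%) and HOXB4 (17.1%) lies also in other genes. HOXC4 (ENSG00000198353, chr12:54016931-54056030) had 11.3 and 13.5 CPM in FaDu and 1.63 and 1.69 CPM in Cal27, a log2 fold change of -2.89 (SE 0.288, adjusted p = 4.28e-06). HOXB3 (ENSG00000120093) had 5.68 and 5.61 against 1.46 and 1.57 CPM (-1.89, SE 0.405, adjusted p = 0.00162). HOXB13 (ENSG00000159184), the prostate gene of the cluster, had 6.36 and 7.43 against 1.28 and 3.27 CPM (-1.60, SE 0.348, adjusted p = 0.00182), and its log2 fold change was -2.42 without Cal27 parental library 2 and -1.08 without Cal27 parental library 1.

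HOXC10 (ENSG00000180818, chr12:53985065-53990279) was at 22.6 and 21.7 CPM in FaDu parental and 8.04 and 8.34 CPM in Cal27 parental cells (log2 fold change -1.43, SE 0.181, adjusted p = 2.86e-05). HOXB7 (ENSG00000260027, chr17:48607227-48633572) was at 17.3 and 18.2 CPM against 7.34 and 7.00 CPM (-1.31, SE 0.164, adjusted p = 2.71e-05). HOXA7 (ENSG00000122592, chr7:27153716-27157936) was at 13.6 and 11.6 CPM against 4.60 and 5.37 CPM (-1.34, SE 0.203, adjusted p = 0.000123); 62.5% of its exonic bases lie also in HOXA-AS3 on the other strand. For the last 3 calls, HOXA2 had 4.66 and 3.33 against 1.46 and 2.10 CPM, HOXC6 2.33 and 3.43 against 1.17 and 1.63 CPM, and HOXC13 5.05 and 6.50 against 2.62 and 3.09 CPM. HOXA2 lost its call without FaDu parental library 1 (log2 fold change -0.91) or Cal27 parental library 1 (-0.93). HOXC6 lost it without FaDu parental library 2 (-0.75) or either Cal27 parental library (-0.81 and -1.30), and HOXC13 without FaDu parental library 2 (-0.83) or Cal27 parental library 1 (-0.90). The HOXC6 call was also lost with DESeq2 (-1.05, adjusted p = 0.0597), and that of HOXC13 with upper-quartile scaling and with 10 counts asked for in each library (-0.98). With spike-in scaling 6 of the 13 calls were lost, those of HOXA2, HOXA7, HOXB7, HOXC6, HOXC10 and HOXC13, and 3 other members were called higher. Over all genes that scaling moved the share of calls that were higher in Cal27 from 60.4% to 84.8%.

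Among members that were not called, HOXA3 had 34.1 and 37.4 CPM in Cal27 parental and 20.7 and 15.1 CPM in FaDu parental cells, and its libraries did not overlap. Its log2 fold change of 1.00 (edgeR adjusted p = 0.000275) did not pass the limit on fold change. HOXD11 was at 0.87 (edgeR adjusted p = 0.00195). By adjusted p-value alone, 2 members were higher in Cal27 and 18 lower. HOXB9 had 8.91 and 5.66 CPM in Cal27 against 8.16 and 6.71 CPM in FaDu, and its libraries overlapped. HOXA5 was at 5.77 and 7.12 CPM against 6.94 and 7.17 CPM. It lies between HOXA2 and HOXA7, both called lower, as do HOXA3, HOXA4 and HOXA6, which were not called either. The other members that were not called spanned these ranges over the 12 libraries: HOXA4 1.13 to 3.84 CPM, HOXA6 1.68 to 4.08, HOXB5 0.922 to 2.48, HOXB6 0.583 to 3.35, HOXC9 0.856 to 4.22, HOXC11 2.92 to 6.31, HOXD8 2.92 to 6.84 and HOXD9 1.15 to 5.60 CPM. HOXB1, HOXC12, HOXD1, HOXD3 and HOXD4 did not pass the filter on low counts in this comparison.

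The resistant groups were next compared with the parental group of their line; AfaR and ErlR share that group. In FaDu AfaR 1 of 35 HOX genes tested rose and 0 fell, 2.86% higher, where 6.48% of all 15092 genes were called higher and 0.954% lower. The gene was HOXD13 (ENSG00000128714, chr2:176092891-176095938), which shapes digits and the urogenital tract. It was at 8.88 and 10.5 CPM in FaDu AfaR and at 4.86 and 3.22 CPM in FaDu parental cells, with a log2 fold change of 1.24 (SE 0.271, adjusted p = 0.0175). The libraries did not overlap, but the call was lost without FaDu parental library 1 (1.56, adjusted p = 0.0540), FaDu parental library 2 (0.98, 0.0996) or FaDu AfaR library 2 (1.12, 0.0896). In Cal27 AfaR HOXD13 was at 6.70 and 8.82 CPM against 3.09 and 5.43 CPM in Cal27 parental cells. Its log2 fold change there was 0.86, and the AfaR difference between lines was -0.40, neither called. In the ErlR groups the log2 fold change of HOXD13 was -0.16 (FaDu) and -0.87 (Cal27), neither called. HOXB9 was at 14.9 and 13 CPM in FaDu AfaR against 8.16 and 6.71 CPM, below the limit on fold change. HOXA10 remained the most counted HOX gene at 34.7 and 34.6 CPM, and HOXB7 had 20.8 and 19.2 CPM.

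In FaDu ErlR 0 of 35 tested HOX genes were called by edgeR in either direction, where 1.54% of all genes were called higher and 0.504% lower. DESeq2 likewise called 0, and 5 had an unadjusted p-value under 0.05 by edgeR. HOXA10 was at 25.9 and 30.9 CPM, HOXC10 at 21.6 and 16.1 CPM, HOXA3 at 20.2 and 20.5 CPM and HOXB7 at 16.9 and 15.8 CPM. The members' median log2 fold change was -0.18, and it was 0.31 with spike-in scaling, where that of all genes was 0.49. The share of all calls that were higher went from 75.4% to 96.1% with that scaling. Across the 39 genes, log2 levels of FaDu parental cells correlated with those of AfaR at r = 0.963 and with those of ErlR at r = 0.985. Over the 16240 genes tested in all libraries the values were 0.982 and 0.989. Both describe genes of libraries that share a line.

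Cal27 AfaR had the most HOX calls among resistant groups, and also the most calls over all genes. These were 2991, against 2059 in Cal27 ErlR, 1122 in FaDu AfaR and 309 in FaDu ErlR. Of 32 HOX genes tested 5 rose and 2 fell, 15.6% and 6.25%, where 11.5% and 8.06% of all 15269 genes tested were called higher and lower. HOXB8, HOXC6, HOXC13, HOXA7 and HOXA13 rose and HOXA2 and HOXA11 fell. By cluster, 8 of 8 tested HOXB genes and 7 of 7 tested HOXC genes had a positive log2 fold change, with medians of 0.86 and 0.92, whereas 9 of 11 HOXA genes had a negative one, with a median of -0.52. These signs were the same under TMM, upper-quartile, DESeq2 and spike-in scaling. Of the positive changes, 1 in HOXB and 2 in HOXC were called, and HOXB4 was at 0.02 with overlapping libraries. The median of all genes was -0.00.

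**Figure D4:**
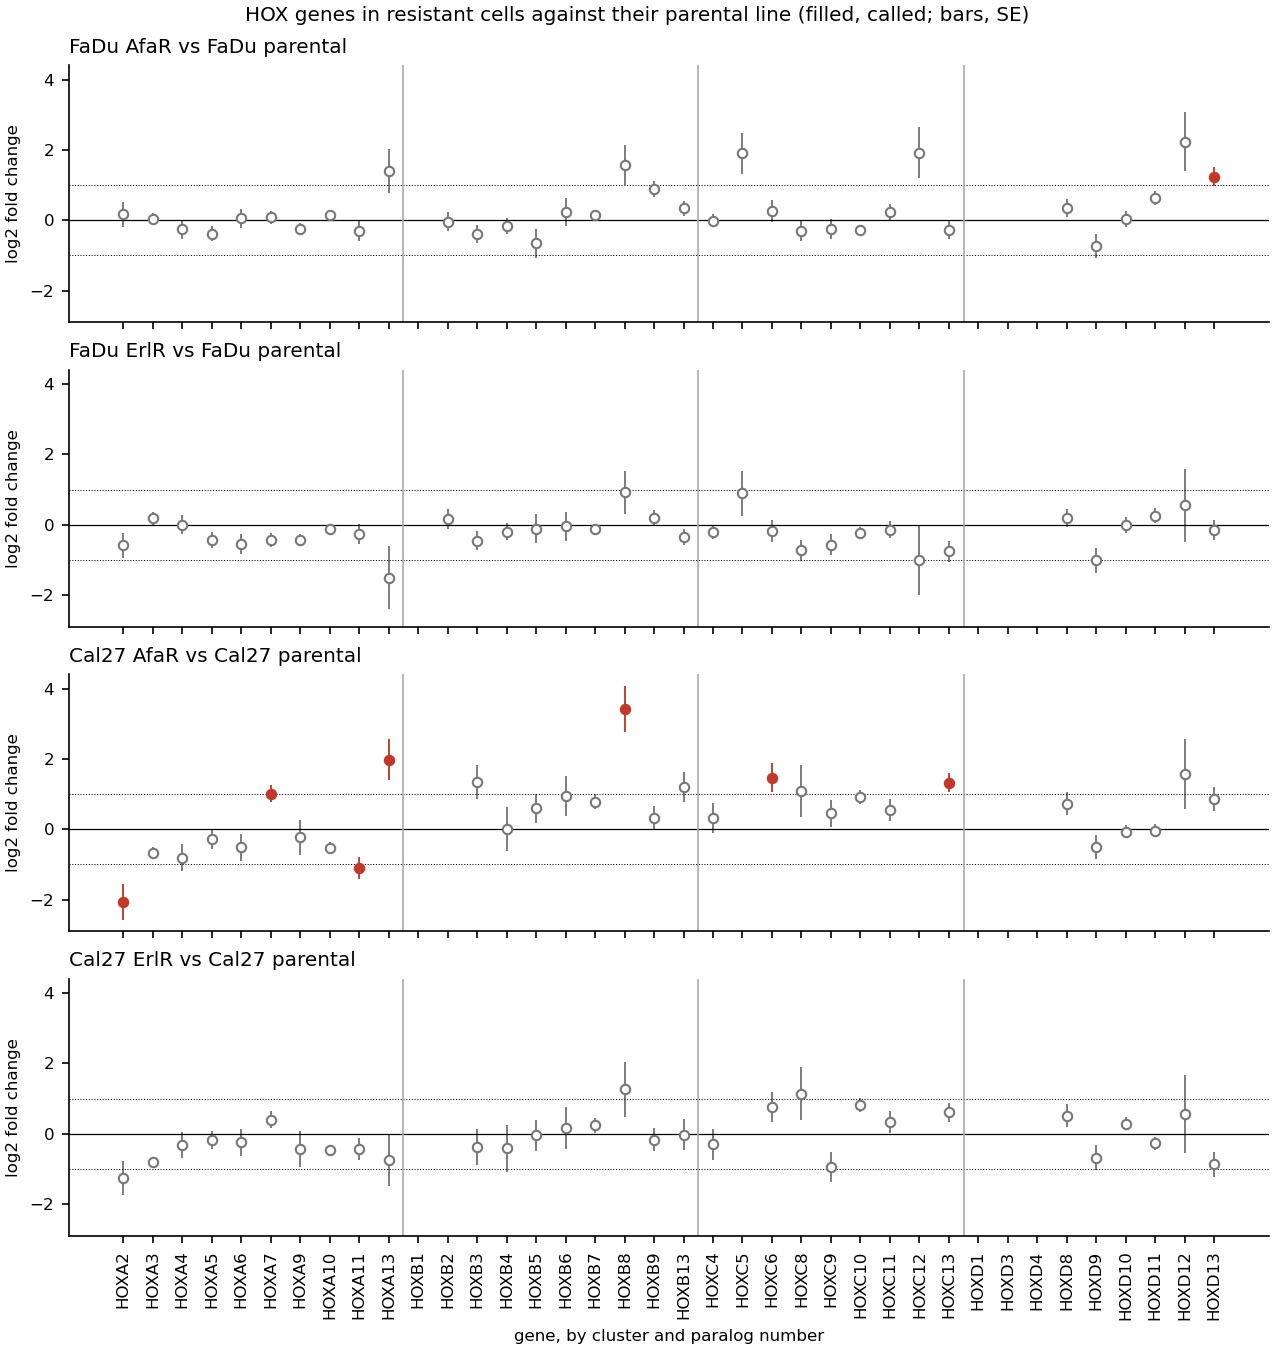
Log2 fold change of tested HOX genes (bars, SE) in the 4 resistant groups against the parental group of the line, by cluster; filled points passed the test and dotted lines mark a fold change of 2 in either direction. FaDu AfaR has 1 filled point (HOXD13), Cal27 AfaR has 7 and the ErlR panels have none.

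HOXB8 (ENSG00000120068, chr17:48611377-48614939), active in the trunk and in blood progenitors, was at 0.117 and 0.233 CPM in Cal27 parental and at 2.59 and 1.28 CPM in Cal27 AfaR cells. The log2 fold change was 3.42 (SE 0.653, adjusted p = 0.00322), from 2 and 4 counts in the parental libraries, and was 2.82 without Cal27 AfaR library 1. HOXB8 also had positive log2 fold changes in FaDu AfaR (1.57), FaDu ErlR (0.92) and Cal27 ErlR (1.26), none called and all from low counts. Its AfaR difference between lines was 1.83 and was not called. HOXC13 (ENSG00000123364, chr12:53938765-53946544), a regulator of hair and nail keratins, rose from 2.62 and 3.09 to 6.91 and 7.31 CPM, a log2 fold change of 1.32 (SE 0.266, adjusted p = 0.00432). HOXB8 and HOXC13 were the only 2 of the 7 calls that held under every alternative that tested them. The setting that asked for a minimum count in each library left HOXB8 untested, because of its low parental counts. HOXA13 (ENSG00000106031, chr7:27193503-27200106), which acts in digits and the urogenital tract, had 0.466 and 0.992 CPM in parental and 2.70 and 3.08 CPM in AfaR cells (1.98, SE 0.594, adjusted p = 0.0269). HOXC6 (ENSG00000197757, chr12:53990624-54030823) had 1.17 and 1.63 against 4.54 and 3.19 CPM (1.46, SE 0.414, adjusted p = 0.0207), and HOXA7 had 4.60 and 5.37 against 9.29 and 10.8 CPM (1.01, SE 0.236, adjusted p = 0.00859).

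HOXA2 (ENSG00000105996, chr7:27100354-27102811), which gives the second pharyngeal arch its identity, fell from 1.46 and 2.10 CPM to 0.432 and 0.406 CPM, a log2 fold change of -2.06 (SE 0.514, adjusted p = 0.0117). HOXA11 (ENSG00000005073, chr7:27181510-27185223), a gene of forearm and uterus with 30.6% of its exonic bases in HOXA11-AS on the other strand, fell from 10.0 and 5.95 CPM to 3.78 and 3.71 CPM (-1.09, SE 0.314, adjusted p = 0.0226). With 1 library left out the number of calls was 3 without Cal27 parental library 1, 10 without Cal27 parental library 2, and 4 without either AfaR library. HOXA13 had a log2 fold change of 2.61 without Cal27 parental library 2. HOXA13 and HOXA11 lost the call without Cal27 parental library 1 (log2 fold change 1.54 and -0.66) or either AfaR library (2.07 and 1.90, -1.10 and -1.06), HOXA2 without Cal27 parental library 2 (-1.78) or either AfaR library (-2.11 and -2.01), HOXC6 without Cal27 parental library 1 (1.24) or AfaR library 1 (1.19), and HOXA7 without Cal27 parental library 1 (0.90) or AfaR library 2 (0.91).

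**Figure D5:**
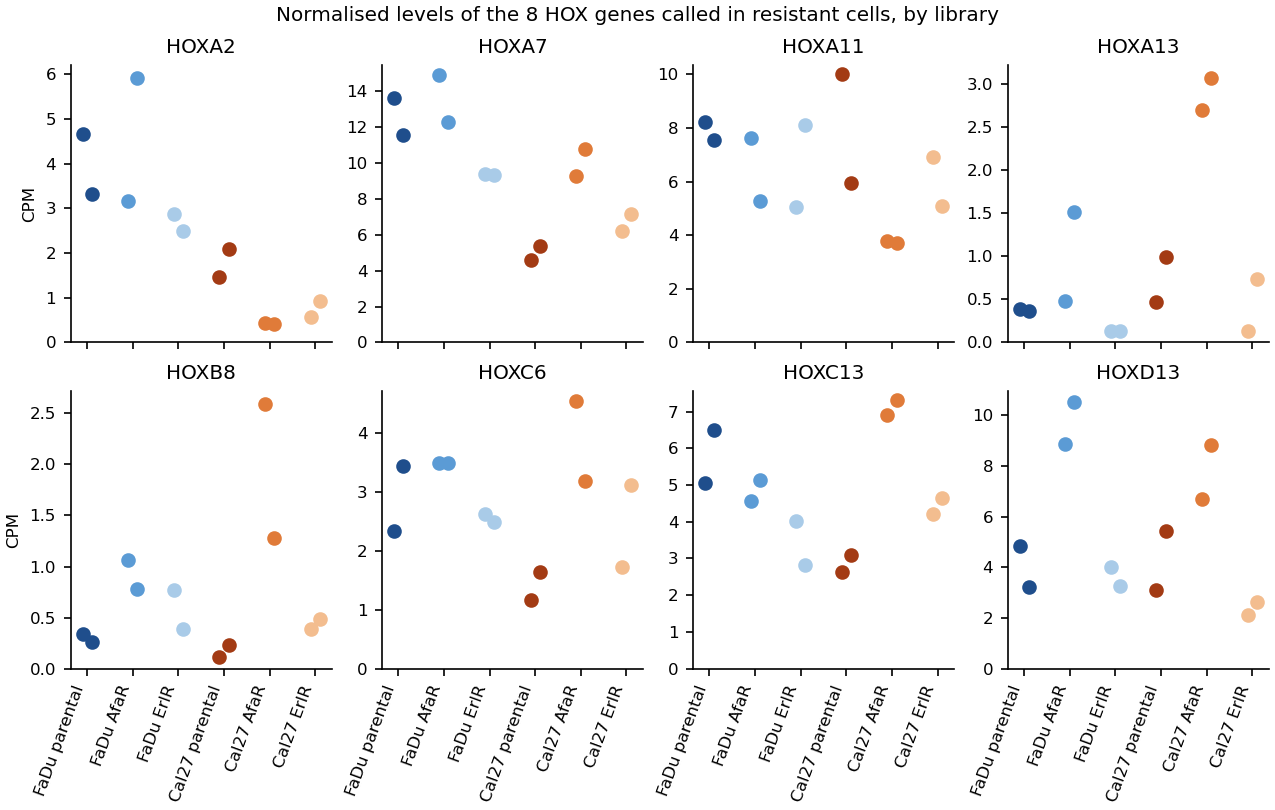
CPM (vertical axes from 0) of the 8 HOX genes called in a resistant group, in the 12 libraries by group; each point is a library. HOXB8 reached 2.59 and 1.28 CPM in Cal27 AfaR against at most 0.233 in Cal27 parental cells, and HOXA2 was at 0.432 and 0.406 against 1.46 and 2.10 CPM.

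HOXB7 was at 12.3 and 12.4 CPM against 7.34 and 7.00 CPM in parental cells, HOXC10 at 14.1 and 16.9 against 8.04 and 8.34 CPM, HOXA10 at 15.5 and 15.9 against 22.9 and 22.1 CPM and HOXA3 at 20.9 and 23.9 against 34.1 and 37.4 CPM. All 4 had an edgeR adjusted p-value below 0.05 and none passed the limit on fold change. By RPKM the order changed, with HOXB7 the highest HOX gene in Cal27 AfaR at 8.06 ± 0.0484 RPKM and HOXA3 at 5.20 ± 0.477 RPKM. HOXB4, HOXB2 and HOXA9, low in Cal27 parental cells, were at 0.648 and 0.348, 0.486 and 0.174, and 1.51 and 0.754 CPM in AfaR. Squamous and fibroblast markers also differed in this group. The 10 squamous markers summed to between 989 and 1070 CPM in Cal27 AfaR and between 4120 and 5430 CPM in Cal27 parental cells, while the 9 fibroblast markers summed to 315 to 327 CPM against 30.2 to 41.8 CPM. COL1A1 alone had a mean of 269 CPM in Cal27 AfaR, where 4 of the 9 reached 1 CPM and none was at 0. Endothelial markers summed to 30.1 to 37.4 CPM in Cal27 AfaR and to 31.7 to 32.7 CPM in Cal27 parental cells. In Cal27 ErlR endothelial markers summed to 2.56 to 6.17, fibroblast markers to 5.37 to 10.6 and squamous markers to 5920 to 6650 CPM. Immune markers summed to 10.5 to 18.5 CPM and nerve markers to 1.77 to 4.71 CPM over the 12 libraries. Their part in the HOX results was not tested.

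In Cal27 ErlR 0 of 32 tested HOX genes were called by edgeR, where 3.56% of all genes were called higher and 9.92% lower; DESeq2 called 0 and 5 had an unadjusted p-value under 0.05. Without Cal27 parental library 1, 1 gene was called lower. Without the limit on fold change 2 passed the adjusted test, HOXA3 and HOXC10. HOXA3 was at 19.4 and 22.2 CPM in ErlR against 34.1 and 37.4 CPM in parental cells, and HOXC10 at 15.8 and 13.6 against 8.04 and 8.34 CPM. HOXD10 was at 18.3 and 16.7 CPM, HOXD11 at 12.59 and 13.99 CPM and HOXA10 at 15.8 and 17.2 CPM. Levels over the 39 genes correlated with Cal27 parental cells at r = 0.969 for ErlR and r = 0.907 for AfaR. Levels of any FaDu with any Cal27 group correlated at 0.761 to 0.824. Over the 16240 genes tested in all libraries the values were 0.966, 0.938 and 0.869 to 0.927.

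Whether a resistant effect differed between the lines was tested directly, as the change in Cal27 minus the change in FaDu over all 12 libraries. For AfaR 3 of 34 genes were called higher and 1 lower, 8.82% and 2.94%, where 4.76% and 7.57% of all genes were. HOXC10 differed by 1.19 (SE 0.250, adjusted p = 0.00586), with 18.6 and 18.1 CPM in FaDu AfaR against 22.6 and 21.7 CPM in FaDu parental cells. HOXC13 differed by 1.56 (SE 0.365, adjusted p = 0.0109), HOXA2 by -2.25 (SE 0.602, adjusted p = 0.0212) and HOXB3 by 1.71 (SE 0.550, adjusted p = 0.0478). HOXB3 was at 5.35 and 2.32 CPM in Cal27 AfaR and its call was lost on leaving out any of the 8 libraries compared other than Cal27 AfaR library 2, and the difference was 0.99 without Cal27 AfaR library 1. That call was also lost with upper-quartile scaling (1.70, adjusted p = 0.0539) and spike-in scaling (1.57, adjusted p = 0.0625). HOXA2 lost the call without FaDu parental library 2 (-2.03), FaDu AfaR library 2 (-1.74), Cal27 parental library 2 (-1.97) or either Cal27 AfaR library (-2.30 and -2.22), and HOXC13 without FaDu parental library 2 (1.38, adjusted p = 0.0503). For ErlR 2 genes were called higher, 5.88% against 3.36%, and 0 lower against 7.51%. They were HOXC10 (1.08, SE 0.251, adjusted p = 0.0118) and HOXC13 (1.38, SE 0.377, adjusted p = 0.0239), and both calls were lost with spike-in scaling, at 0.59 and 0.89, where the median of all genes was -0.49 and 6.17% of all calls were higher, against 30.9% in the TMM fit. HOXC10 also lost the call without FaDu ErlR library 2 (0.88) or Cal27 ErlR library 1 (0.95), and HOXC13 without any of 5 libraries (1.15 to 1.44).

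The genes that act with or on HOX genes were counted by list, and shares of all genes stand beside the counts. Of the 8 TALE cofactors tested of 9, 1 was higher and 1 lower in Cal27 parental cells, where 19.1% of all genes were called higher and 12.5% lower. PBX3 was at 15.3 and 12.7 CPM in Cal27 parental and 2.43 and 2.03 CPM in FaDu parental cells (log2 fold change 2.65, SE 0.250, adjusted p = 2.86e-06). In Cal27 AfaR 2 of 8 rose and 0 fell (11.5% and 8.06% of all genes). PBX3 reached 26.9 and 32.8 CPM there (1.09, SE 0.225, adjusted p = 0.00470). In FaDu ErlR 1 of 7 rose (1.54% of all genes), PBX3 at 5.43 and 6.15 CPM (1.36, SE 0.284, adjusted p = 0.0354), and 0 of 7 in FaDu AfaR and 0 of 8 in Cal27 ErlR were called. The list medians were -0.32 in the parental comparison and 0.28 in Cal27 AfaR, against 0.04 and -0.00 for all genes.

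Of 28 Polycomb genes 6 were lower and 1 higher in Cal27 parental cells, where 12.5% of all genes were lower and 19.1% higher, with a list median of -0.44 (0.04 for all genes). The largest was CBX2, a reader of the repressive mark, at 4.95 and 5.66 CPM against 41.7 and 36.5 CPM (log2 fold change -2.88), before PHF19 (-1.61), PCGF2 (-1.31) and PHC1 (-1.22). PHF19 fell in FaDu AfaR (-1.07), the only one of the list called there (0.954% of all genes lower). In Cal27 AfaR PHC1 rose (1.17) and JARID2 fell (-1.12), 1 of 28 each way where 11.5% and 8.06% of all genes were called. In Cal27 ErlR CBX7 fell (-2.38) while CBX6 (1.25) and MTF2 (1.04) rose (9.92% and 3.56% of all genes). FaDu ErlR had 0 of 28. Of 23 trithorax and MLL genes 4 were lower in Cal27 parental cells, SETD1A (-1.35), CTCF (-1.29), KDM5A (-1.25) and PSIP1 (-1.22), and MLLT3 was higher (1.61), against the same 12.5% and 19.1%. In FaDu AfaR ASH2L (1.81) and MLLT3 (1.43) rose (6.48% of all genes), and 0 of 23 were called in each of the other 3 resistant groups.

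Of 15 tested genes of the retinoic acid pathway, 5 were lower and 4 higher in Cal27 parental cells (12.5% and 19.1% of all genes). CYP26B1 and CYP26A1, which degrade retinoic acid, were lower, CYP26B1 at 0.408 and 0.525 CPM against 19.4 and 29.7 CPM in FaDu (log2 fold change -5.70) and CYP26A1 at 0 and 2 counts against 35 and 41 counts. The receptor RARG was lower too, at 37.3 and 47.0 against 190.3 and 194.8 CPM (-2.19), and DHRS3, which limits retinoic acid synthesis, was higher (2.17). In Cal27 ErlR 6 of 13 fell and 0 rose, where 9.92% of all genes fell and 3.56% rose, with a list median of -1.10 (-0.03 for all genes). They included RARB, a receptor gene that is itself a target of retinoic acid (-4.26), STRA6, which takes up retinol (-2.33), ALDH1A3, a synthesis enzyme (-2.25), and DHRS3 (-1.88). Of 13 tested in Cal27 AfaR 2 were higher (11.5% of all genes), among them STRA6 (1.46), and 2 lower (8.06%), ALDH1A3 (-1.84) and CRABP2 (-1.59). In FaDu AfaR CRABP1 (3.32) and RARB (1.89) rose and CYP26B1 fell (-1.84), of 15 tested, where 6.48% and 0.954% of all genes were called, and FaDu ErlR had 0 of 15.

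Of 14 upstream and axial regulators 7 could be tested. GDF11 (-1.18) and GBX2 (-1.09) were lower in Cal27 parental cells (12.5% of all genes), EGR2 fell in FaDu AfaR (-2.03, with 0.954% of all genes lower), 1 gene of the list rose in Cal27 AfaR (11.5%), and GATA6 fell in Cal27 ErlR (-1.29, with 9.92% lower). FaDu ErlR had 0 of 7. A further list held 37 other transcription factors and cofactors of embryonic patterning. In Cal27 parental cells 6 of 32 tested were higher and 9 lower (19.1% and 12.5% of all genes), with a list median of -0.57. EYA4 was at 0 counts in both FaDu parental libraries and at 31 and 51 counts in the Cal27 parental libraries, PRRX2 at 0 and 0 against 6 and 15 counts, TBX1 at 0 and 4 against 196 and 214 counts, and IRX1 at 2 and 0 against 120 and 94 counts, all 4 called higher. In Cal27 AfaR 6 of 28 rose and 3 fell (11.5% and 8.06% of all genes), led by TBX3 (4.78), BARX2 (-4.13), EYA4 (3.54) and ALX4 (3.32), and in Cal27 ErlR 2 rose and 7 fell (3.56% and 9.92%), among them EYA4 (-3.43) and BARX2 (-3.23), and ALX4 and PRRX2, which were at 2 and 1 and at 0 and 1 counts there. FaDu AfaR had 3 of 26 higher (6.48% of all genes), BARX1 (3.15), EYA1 (2.24) and SHOX2 (1.66), and IRX2 lower (-1.22), and FaDu ErlR had ALX4 lower (-1.83), where 0.954% and 0.504% of all genes were lower.

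Of 25 noncoding RNA genes listed within the clusters 22 were in the count files, and 11 or 12 could be tested. In Cal27 parental cells HAGLROS (3.42) and HAGLR (1.96) of the HOXD cluster and HOTAIRM1 (1.25) of the HOXA cluster were higher and HOXC-AS2 was lower (-1.40), of 12 tested, where 19.1% and 12.5% of all genes were called. HAGLR shares exonic bases with HOXD1 on the other strand. It was at 6.23 and 8.40 CPM in Cal27 parental and 1.12 and 2.65 CPM in FaDu parental cells. HOXD1 had 4 and 2 counts in Cal27 parental and 0 and 0 counts in FaDu parental cells, and reads in the shared bases may have been left out. In Cal27 AfaR HOXA10-AS (-1.90) and HOTAIRM1 (-1.03) fell, of 12 tested (8.06% of all genes). In Cal27 ErlR, where no coding HOX gene was called, HOTAIR (-2.25), HOXA11-AS (-2.01), HOXA-AS2 (-2.0) and HAGLR (-1.30) fell, of 12 tested (9.92% of all genes), HOTAIR from 0.583 and 0.933 to 0.192 and 0.122 CPM. In FaDu 0 of 11 were called in either resistant group. For the difference between lines, the AfaR test called 2 of 12 noncoding genes lower and the ErlR test 1 of 12. Of all genes, 7.57% and 7.51% were called lower in these tests. Antisense and coding genes that overlap could not be told apart where counting was without strand.

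Genes beside the clusters were taken as the 4 nearest other protein-coding genes on each side, 32 in all. EVX1 and EVX2, homeobox genes next to the posterior ends of HOXA and HOXD, were at or below 0.0875 and 0.138 CPM in every group mean. Of 27 tested in the parental comparison 4 were higher in Cal27 and 2 lower, where 19.1% and 12.5% of all genes were called. HIBADH (2.30) and TAX1BP1 (1.90) on the HOXA side and CALCOCO1 (2.67) on the HOXC side were higher, and NFE2, also called higher, was at group means of 0.0260 and 0.671 CPM only. CBX5, which lies beside HOXC, was lower (-1.29), as was HNRNPA3 (-1.11). In Cal27 AfaR JAZF1 (2.25), CALCOCO1 (1.34) and CBX5 (1.00) rose and 0 fell, of 27 tested (11.5% and 8.06% of all genes). Cal27 ErlR had JAZF1 higher (1.11) and CALCOCO1 (-1.14) and CALCOCO2 (-1.01) lower (3.56% and 9.92%), FaDu AfaR had CALCOCO1 higher (1.47, with 6.48% higher), and FaDu ErlR had 0 of 26. The list median in the parental comparison was -0.04.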

How the data were processed

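Poly(A) RNA with ERCC spike-ins was sequenced in 12 libraries, 2 per group. Per the labels and the study's methods, the authors trimmed reads with Trimmomatic 0.36, aligned them to GRCh38 with STAR 2.5.2b and counted them with featureCounts of Subread 1.5.2. They deposited raw counts per Ensembl gene, which were used here; their tables of normalized counts for each comparison were not used. Gene names came from the count files and GENCODE, which held 56948 of the 58051 identifiers. Groups came from the sample titles, and 0 columns were left without a sample.

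The test was that of edgeR 4.0.16, run in R 4.3.3 (filterByExpr, TMM, glmQLFit and glmQLFTest, Benjamini-Hochberg adjustment over all genes tested): 6 libraries per line with 3 residual degrees of freedom for resistant against parental cells, and 12 libraries with 6 for the parental lines and the differences between lines. The biological coefficient of variation was 14.5% to 15.3%. The scripts were tested on simulated data. Depth was 16334937 to 23399259 counts on genes, with spike-ins at 3.86% to 5.82% of counts and kept out of library sizes. Both values split by group. The FaDu parental and FaDu AfaR libraries had 20156109 to 23399259 counts and 5.64% to 5.82% spike-ins. The FaDu ErlR and all Cal27 libraries had 16334937 to 16689855 counts and 3.86% to 4.6% spike-ins. Intervals and floors cover counting error only. CPM used TMM factors over 12 libraries, and RPKM divides CPM by exonic kilobases.

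Values per library are given for HOX genes called in any comparison or with a group mean of at least 10 CPM, fold changes for called HOX genes, and at most 4 called genes per list and comparison. HOX members and gene lists were chosen with earlier results of these data known. Alternatives were DESeq2 1.42.0, upper-quartile and spike-in scaling, dropping the filter or asking for 10 counts in each library, fits of 4 or 12 libraries, a replicate block, other thresholds, and leaving out each library in turn. A HOX member and some genes of the lists entered the counts but are not reported here by name, in the text or the figures.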

Additional observations from a re-analysis of the deposited data

Results flagged for a closer look

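Differences between the lines in the effect of resistance, tested as an interaction over all 12 libraries, were called for 6 HOX results. For AfaR 8.82% of the 34 members tested were called higher and 2.94% lower, where 4.76% and 7.57% of all genes were. For ErlR the shares were 5.88% and 0 against 3.36% and 7.51%. The genes called for AfaR, Cal27 minus FaDu, were HOXA2 (log2 difference -2.25), HOXB3 (1.71), HOXC10 (1.19) and HOXC13 (1.56). For ErlR they were HOXC10 (1.08) and HOXC13 (1.38). HOXC10 is the most even of them: in Cal27 it was at 8.04 and 8.34 CPM in parental cells, 14.1 and 16.9 CPM in AfaR and 15.8 and 13.6 CPM in ErlR, and in FaDu at 22.6 and 21.7, 18.6 and 18.1, and 21.6 and 16.1 CPM. Both resistant groups of a line were set against the same parental libraries, so the AfaR and ErlR results for a gene share them.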

How the results depend on the processing

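Of 27 HOX results called for a gene and comparison, 10 were called under every alternative that tested them. The other 17 lost the call under at least 1, and none changed direction. Among the 10, HOXB2, HOXB4 and HOXC8 between the parental lines and HOXB8 in Cal27 AfaR had libraries with fewer than 10 counts. The setting that asked for 10 counts in each library therefore left them untested. Of 322 alternative values 265 stayed on their side of the threshold and 57 did not. In FaDu AfaR the 1 call became 2 with upper-quartile scaling, 3 with spike-in scaling, 4 without a filter on low counts, 2 in a fit of the 4 libraries compared, 2 without a limit on fold change and 5 at an unadjusted p-value with the same limit. Without a limit on fold change the calls were 12 in place of 7 in Cal27 AfaR, 2 in place of 0 in Cal27 ErlR and 20 in place of 13 between the parental lines. Unadjusted p-values gave 1 call in each ErlR group in place of 0, and spike-in scaling 1 in place of 2 for the ErlR difference between lines. Leaving out 1 library gave 0 to 2 calls for AfaR and 0 for ErlR in the FaDu line, 3 to 10 and 0 to 1 in the Cal27 line, 12 to 14 between the parental lines, and 1 to 4 and 0 to 3 for the AfaR and ErlR differences between lines. At 5 CPM in place of 1 CPM the HOX genes detected numbered 18, 18 and 16 in FaDu (parental, AfaR, ErlR) and 10, 12 and 11 in Cal27. The cause was not tested for these changes.

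Spike-in scaling moved the median log2 fold change of all genes to 0.62 between the parental lines, 0.49 in FaDu ErlR, 0.18 in FaDu AfaR, and -0.18 and -0.49 for the AfaR and ErlR differences between lines. The share of calls that were higher went from 60.4% to 84.8% between the parental lines and from 75.4% to 96.1% in FaDu ErlR. Same-numbered libraries did not deviate together (r from -0.173 to 0.169 between groups), so the numbers were not taken to pair them. With a replicate block the calls for AfaR and ErlR were 1 and 0 in the FaDu line and 8 and 0 in the Cal27 line, with 13 between the parental lines, and 3 and 2 for the differences between lines. A block with the Cal27 AfaR numbers crossed, chosen after seeing these correlations, gave 9 calls in Cal27 AfaR. The call lost with the block for the AfaR difference between lines was that of HOXB3 (1.71, adjusted p = 0.0608).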
